A study of Mus musculus with 11 samples.

Results

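Interleukin 2 (IL-2), the chains of its receptor and the response genes Cish and Socs2 were followed across CD4 T cell subsets of the inflamed lacrimal gland (LG), asking which cells carry the message for the cytokine and which carry the means to sense it. The 6 genes named were Il2, Il2ra, Il2rb, Il2rg, Cish and Socs2, and members were all probe sets that the array annotation maps to these symbols alone. For 5 of the 6 genes this gave 11 probe sets among 45037, and 5 genes among 17097. Il2rg is not reported here, because the annotation used here listed no probe set under its symbol. Il2 and Cish had 1 probe set each, Il2ra had 2, Il2rb had 3 and Socs2 had 4.

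All cells came from NOD mice, male and 16 weeks old. The strain's tear glands become infiltrated by lymphocytes, and it is studied as a model of Sjögren's. LG_naive, LG_eTconv and LG_eTreg, with 3 arrays each, were CD4 and TCRβ positive gland cells: the first lacked PD-1 and ICOS, and the other two were high for both, taken as effector conventional and effector regulatory T cells. The design text states the same gate, low for CD73 and CD200, for both effector subsets, and names no Foxp3 reporter. From the spleens of those mice came unfractionated CD4 T cells (Spl_CD4) and CD8 T cells (Spl_CD8), with 1 array each. No group was treated and no allele is named beyond the strain, and the labels do not say whether an array stands for 1 mouse or for a pool. So the p-values reflect the spread among arrays alone, and part of that spread may be technical.

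IL-2 is made mainly by activated conventional T cells and signals through a receptor of up to 3 chains. The alpha chain (CD25, gene Il2ra) gives high affinity, and the beta chain (CD122, Il2rb) and the common gamma chain (Il2rg) carry the signal through the kinases JAK1 and JAK3 to the transcription factor STAT5. STAT5 then raises Il2ra itself and inhibitors of the pathway, among them Cish and Socs2. Regulatory T cells need IL-2 but make little of it, since Foxp3 represses the Il2 gene, and the Il2 region is among the known autoimmunity risk regions of the NOD strain. The design text names no IL-2 measurement, so all values here are transcript levels.

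The sequences just upstream of the start sites show the letters that known regulators of these genes read. RefSeq (GRCm38.p6, the C57BL/6J genome, not NOD) held such windows for 3 of the 5 measured genes, Il2, Il2ra and Cish. For Il2 (chr3:37125955-37126204, minus strand) and Il2ra (chr2:11642542-11642791, plus strand) the 250 bases before the gene start are given, and for Cish 26 bases across its start (chr9:107296656-107296681, plus strand). Capitals mark GGAAAA, the core bound by NFAT, in Il2, an NF-kB motif in Il2ra and TTCNNNGAA, the STAT motif, in Cish, each searched on both strands.
Il2: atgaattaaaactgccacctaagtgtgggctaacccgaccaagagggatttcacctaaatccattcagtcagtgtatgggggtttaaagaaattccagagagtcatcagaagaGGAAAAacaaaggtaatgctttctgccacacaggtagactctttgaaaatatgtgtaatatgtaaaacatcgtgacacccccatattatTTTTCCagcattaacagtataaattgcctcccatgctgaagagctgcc
Il2ra: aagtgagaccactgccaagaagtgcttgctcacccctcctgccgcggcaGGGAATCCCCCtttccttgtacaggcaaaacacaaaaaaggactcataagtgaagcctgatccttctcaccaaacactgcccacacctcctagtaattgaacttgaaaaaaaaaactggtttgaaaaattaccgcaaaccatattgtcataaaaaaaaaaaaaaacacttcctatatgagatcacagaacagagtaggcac
Cish: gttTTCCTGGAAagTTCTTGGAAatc

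The Il2 window held the NFAT core 2 times, 137 to 132 bases upstream on the strand of the gene and 48 to 43 bases upstream on the other strand. Of all 32851 windows of 250 upstream bases, 20.4% held that core. The NF-kB motif of Il2ra lay 201 to 192 bases upstream, with an overlapping match on the other strand 200 to 191 bases upstream, and 7.25% of all windows held it. TGANTCA, the AP-1 motif, was in none of these 3 windows and in 6.75% of all. The STAT motif was in none of the 3 either and in 7.02% of all. In Cish it stood 2 times just past that window, beginning at bases 1 and 12 of the gene, with no overlap between the matches. In windows of 300 bases, which run 50 bases past the start, 8.30% of all windows held it and 0.457% held it 2 times or more. These matches are letters in a reference, not measured binding.

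Values are RMA signals on the log2 scale, and since probe sets differ in brightness, levels are compared between samples and not between genes. A signal counted as above background when it exceeded the highest nonspecific control probe set of its array, a limit that ran from 0.94 to 1.70. Between 55.5% and 65.6% of the 17097 genes lay above it. Correlations across genes ran from 0.980 to 0.991 between arrays of a gland group and from 0.943 to 0.975 between groups. LG_naive 1 and LG_eTreg 3 had the highest 18S control signals and LG_eTconv 1 the largest excess of 3′ over 5′ actin control signal, and the labels mention 1 sample of lower RNA integrity without tying it to a group. All 7 T cell markers (Cd3e, Cd3d, Cd3g, Cd247, Cd2, Cd5 and Cd4) were above background in all 5 groups. Cd4 stood at 8.35 to 9.02 on the gland arrays and at 2.47 in Spl_CD8. Foxp3, which defines regulatory T cells, stood at 8.13 to 8.21 in LG_eTreg, 3.61 to 4.85 in LG_eTconv, 2.86 to 4.95 in LG_naive and 5.77 in Spl_CD4. The 5 markers used for these cells were Foxp3, Ikzf2, Ctla4, Tnfrsf18 and Itgae. By limma 4 of them, all but Foxp3, were also higher in LG_eTconv than in LG_naive (median 1.18), against 6.45% of all genes. LG_eTreg had 5 higher than LG_naive (median 3.72) and 3 higher than LG_eTconv (median 1.04), against 6.20% and 2.94% of all genes.

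**Figure D1:**
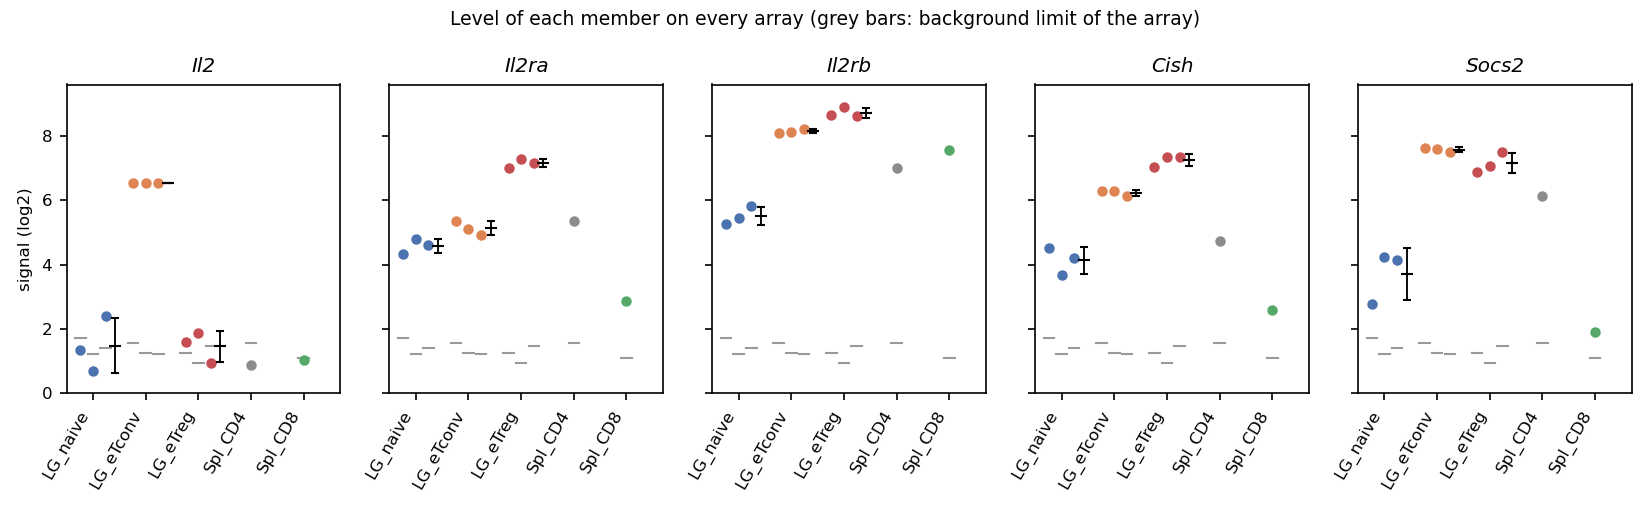
Log2 signal (y axis, same scale in all 5 panels) of Il2, Il2ra, Il2rb, Cish and Socs2 on each of the 11 arrays, with 1 point an array, grouped by cell subset (x axis). Black marks are the mean and SD of the 3 gland arrays of a group and grey bars the background limit of each array. Il2 was high only on the 3 LG_eTconv arrays, near 6.53, and Il2ra was highest on the 3 LG_eTreg arrays, from 7.01 to 7.28.

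Il2 itself was carried by the effector conventional cells. It read 6.52, 6.53 and 6.53 on the 3 LG_eTconv arrays, 1.34, 0.69 and 2.40 on the LG_naive arrays, 1.59, 1.87 and 0.93 on the LG_eTreg arrays, 0.88 in Spl_CD4 and 1.03 in Spl_CD8. All 3 LG_eTconv arrays lay far above the other 8, whose values overlapped at or near background: 1 of 3 LG_naive arrays (replicate 3), 2 of 3 LG_eTreg arrays and neither spleen array exceeded their limits. LG_eTconv exceeded LG_naive by 5.05 (SE 0.40, limma adjusted p = 7.54e-05), which is 33.2-fold as measured. LG_eTreg lay below LG_eTconv by a log2 difference of −5.07 (SE 0.40, limma adjusted p = 0.000156), or 33.5-fold as measured. These sizes rest on signals at or near background in the dim group. With each dim array at no less than its own background limit, LG_eTconv was 27.0-fold above LG_naive and 29.6-fold above LG_eTreg. Between LG_eTreg and LG_naive the log2 difference was −0.01 (95% interval −0.94 to 0.91, adjusted p = 0.993), a range that leaves room for nearly 1 log2 unit either way. Its sign turned when the arrays were centred on their medians (0.03) or quantile normalized again (0.05). It also turned without LG_naive 3 (0.45), without LG_eTreg 3 (0.26) and without LG_naive 1, LG_eTconv 1 and LG_eTreg 3 together (0.19).

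The alpha chain ran the other way. Il2ra, which completes the high-affinity receptor, read 7.01, 7.28 and 7.17 in LG_eTreg, 5.34, 5.12 and 4.91 in LG_eTconv, 4.34, 4.79 and 4.60 in LG_naive, 5.36 in Spl_CD4 and 2.85 in Spl_CD8. The LG_eTreg arrays lay above all others, and the message was above background on all 11 arrays. LG_eTreg exceeded LG_naive by 2.58 (SE 0.16, limma adjusted p = 2.35e-05; 5.96-fold) and LG_eTconv by 2.03 (SE 0.16, limma adjusted p = 0.000135; 4.08-fold). LG_eTconv stood above LG_naive by 0.55 (95% interval 0.19 to 0.91, adjusted p = 0.0564), which did not pass. That difference did pass without LG_naive 2 (adjusted p = 0.0490), without LG_eTconv 3 (0.0490) and with arrays centred on their medians (0.0348). The second Il2ra probe set, dimmer but above background on 9 arrays, gave 2.43 and 2.02 for LG_eTreg against LG_naive and LG_eTconv, and 0.41 for LG_eTconv against LG_naive. Both probe sets therefore placed LG_eTreg on top by like amounts.

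The beta chain was high in both effector subsets. Il2rb, shared by the IL-2 and IL-15 receptors, read 8.10, 8.14 and 8.22 in LG_eTconv, 8.64, 8.89 and 8.61 in LG_eTreg, and 5.26, 5.46 and 5.81 in LG_naive, with 7.01 in Spl_CD4 and 7.56 in Spl_CD8. No array of one gland group overlapped with another group. Against LG_naive it was higher by 2.64 in LG_eTconv (SE 0.15, limma adjusted p = 1.20e-05; 6.24-fold) and by 3.20 in LG_eTreg (SE 0.15, adjusted p = 6.37e-06; 9.22-fold). LG_eTreg stood above LG_eTconv by 0.56 (95% interval 0.21 to 0.91, adjusted p = 0.0795) on this brightest probe set, which did not pass, though without LG_naive 3 it did (0.0430). The other Il2rb probe sets gave 0.98 and 1.38, with adjusted p of 0.0462 and 0.0450 over all 45037 probe sets in limma. The mean of the 3 gave 0.97 (adjusted p = 0.00457). The direction was the same at all 3 probe sets, while the size and the call depended on which one was read.

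Cish and Socs2 encode SH2 proteins that STAT5 induces and that dampen cytokine signalling. Cish read 7.04, 7.36 and 7.35 in LG_eTreg, 6.27, 6.29 and 6.12 in LG_eTconv, 4.51, 3.68 and 4.19 in LG_naive, 4.74 in Spl_CD4 and 2.59 in Spl_CD8. The 3 gland groups formed separate steps, with LG_eTreg above LG_eTconv and both above LG_naive. LG_eTconv exceeded LG_naive by 2.10 (SE 0.20, limma adjusted p = 0.000222; 4.28-fold) and LG_eTreg did so by 3.12 (SE 0.20, adjusted p = 3.24e-05; 8.72-fold). LG_eTreg exceeded LG_eTconv by 1.03 (SE 0.20, limma adjusted p = 0.0221; 2.04-fold). This last call was lost without LG_eTconv 1 (adjusted p = 0.0676), LG_eTconv 2 (0.0668), LG_eTconv 3 (0.0819), LG_eTreg 2 (0.0820) or LG_eTreg 3 (0.0728). It was also lost with the replicate block (0.0569), with background values raised to the limit (0.0566), and without LG_naive 1, LG_eTconv 1 and LG_eTreg 3 together (0.0889). The difference itself stayed between 0.97 and 1.13 when single arrays were left out.

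Socs2 was high in both effector subsets. It read 7.62, 7.60 and 7.49 in LG_eTconv, 6.89, 7.06 and 7.49 in LG_eTreg, 2.78, 4.22 and 4.13 in LG_naive, 6.12 in Spl_CD4 and 1.89 in Spl_CD8. Both effector subsets lay clear of LG_naive, while LG_eTreg 3 and the lowest LG_eTconv array were equal at this rounding. Against LG_naive the difference was 3.86 in LG_eTconv (SE 0.36, limma adjusted p = 0.000161; 14.6-fold) and 3.44 in LG_eTreg (SE 0.36, adjusted p = 0.000384; 10.8-fold). LG_eTreg differed from LG_eTconv by −0.43 (95% interval −1.24 to 0.39, adjusted p = 0.675) on the brightest probe set, which can also read related transcripts (its name carries the s suffix). The second Socs2 probe set gave −1.18 (SE 0.22, adjusted p = 0.0263 over all probe sets in limma), and there LG_eTconv read 4.76, 4.21 and 4.95 against 3.41, 3.24 and 3.73 in LG_eTreg. Each of the other two Socs2 probe sets was at or below background on 9 of 11 arrays. One of them had a called difference for LG_eTreg against LG_naive (0.81, adjusted p = 0.0292), with 2 LG_eTreg arrays and no LG_naive array above background. At the 2 brighter Socs2 probe sets the sign between the effector subsets was thus opposite to that of Cish.

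**Figure D2:**
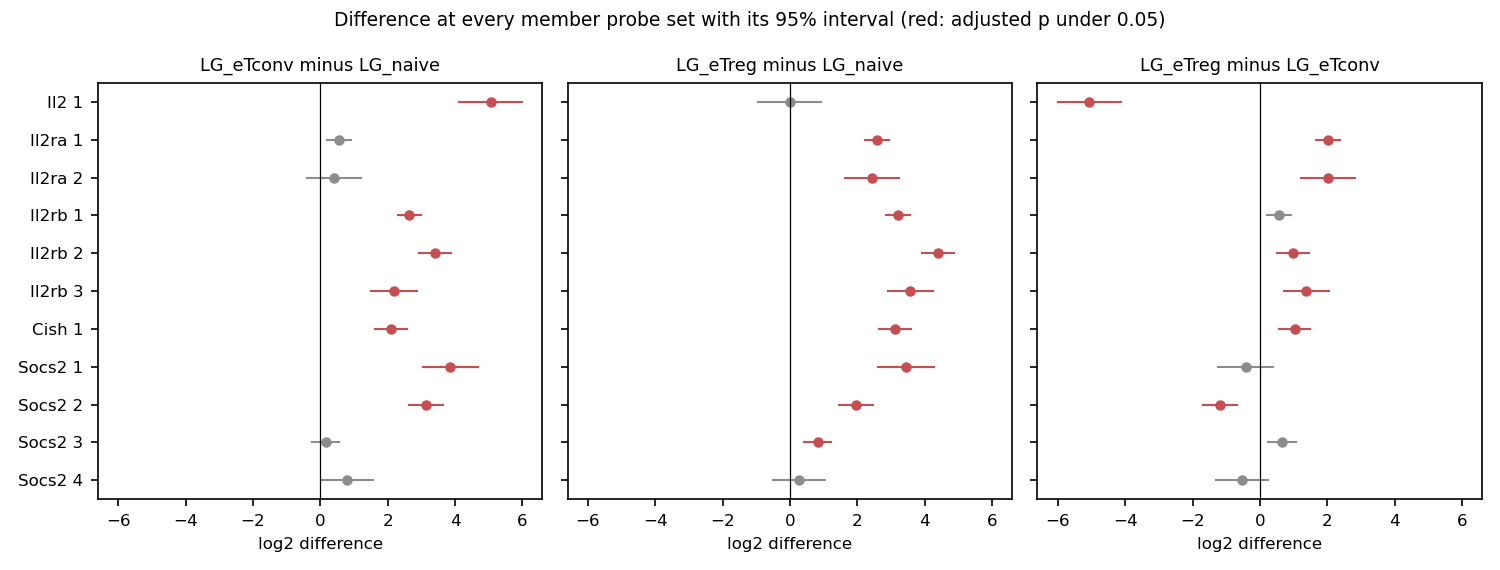
Log2 difference (x axis) with its 95% interval from limma at each of the 11 member probe sets (y axis, numbered within a gene from the brightest) for the 3 gland comparisons. Red marks an adjusted p under 0.05 over all 45037 probe sets. The 11 probe sets stand for 5 genes, so those of the same gene are not separate results.

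Counted together, 4 of the 5 measured genes were higher in LG_eTconv than in LG_naive (all but Il2ra), against 6.45% of all genes. In LG_eTreg 4 of 5 were higher than in LG_naive (all but Il2), against 6.20%. None of the 5 was lower in either, by limma at the adjusted threshold or at an unadjusted p under 0.05, where 7.02% and 5.47% of all genes were called lower. These comparisons share the LG_naive arrays. Between the effector subsets Il2ra and Cish were higher and Il2 lower in LG_eTreg, against 2.94% of all genes higher and 2.76% lower, while Il2rb and Socs2 did not pass. Without LG_naive 1, LG_eTconv 1 and LG_eTreg 3 the counts were 4, 4 and, between the effector subsets, 1 higher and 1 lower. The values of the 2 groups did not overlap for 5, 4 and 5 of the 5 genes (Socs2 between the effector subsets only in the fourth decimal), a pattern shown by 31.1%, 27.1% and 21.5% of all genes. The median difference over all genes was −0.03, −0.02 and 0.01.

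Markers of other cells also differed between the gland sorts. Against LG_naive, 6.45% of all genes were higher and 7.02% lower in LG_eTconv, and 6.20% and 5.47% in LG_eTreg. Of the 6 epithelium markers 5 were above background in LG_naive, and Cldn3 on no array. The 6 summed to 25.5 to 30.7 log2 units in LG_naive, 14.8 to 17.2 in LG_eTconv and 21.3 to 22.3 in LG_eTreg. By limma 3 were lower in LG_eTconv and 2 in LG_eTreg than in LG_naive, and 2 were higher in LG_eTreg than in LG_eTconv. Epcam read 5.68 to 6.85 in LG_eTreg against 5.49 to 5.96 in LG_naive. The 7 monocyte and macrophage markers summed to 27.6 to 30.7, 16.6 to 18.5 and 18.1 to 18.7, with Csf1r and Itgam at or below background on all gland arrays. Of the 4 measured dendritic cell markers, 2 were lower in each effector subset than in LG_naive and 1 was higher in LG_eTreg, with sums of 9.93 to 12.1 in LG_naive, 5.81 to 7.93 in LG_eTconv and 7.21 to 8.76 in LG_eTreg. Of the 5 measured B cell markers, 3 were lower in LG_eTreg than in LG_naive, with sums of 12.8 to 14.1 in LG_naive, 12.2 to 13.6 in LG_eTconv and 8.06 to 9.06 in LG_eTreg, and Pax5 was at or below background on all 11 arrays. Cd8a read 6.16 to 6.83 in LG_eTconv, above both LG_naive (4.51 to 5.19) and LG_eTreg (5.13 to 5.23), whereas Cd8b1 did not exceed 1.83 on any gland array. T cell markers were themselves higher in the effector subsets for 3 of 7 genes in each, with medians of 0.37 in LG_eTconv and 0.22 in LG_eTreg. The part of these markers in the member differences was not tested, and fewer cells of a type and less message per cell cannot be told apart in such samples. Natural killer cells also carry Il2rb. Of 5 measured markers of those cells, Ncr1 and Klra8 were at or below background on all 11 arrays and Klrk1 on all 9 gland arrays. Klrb1c was above it on 0 of 3 LG_naive, 1 of 3 LG_eTconv and 2 of 3 LG_eTreg arrays, at no more than 1.76. Eomes, which some T cells also express, read 2.62 to 4.02 in LG_naive, 0.85 to 1.88 in LG_eTconv and 1.26 to 2.18 in LG_eTreg. The sum of the 5 was 4.48 to 5.47, 2.30 to 3.17 and 3.05 to 4.25 in these groups. The part of these markers in the Il2rb differences was not tested.

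Spleen T cells placed the gland levels on a wider scale, with no test because Spl_CD4 and Spl_CD8 had 1 array each. A gene was counted when it differed at least 2-fold and, for a gland group, when the 3 arrays were all higher or all lower than Spl_CD4. LG_eTconv was higher than Spl_CD4 for 4 of the 5 genes and lower for 0, where 6.56% of all genes were higher and 6.62% lower: Cish by 1.48, Socs2 by 1.45, Il2rb by 1.14, and Il2, which was not above background in Spl_CD4, by at least 4.97 (at least 31.2-fold against the background limit of that array). LG_eTreg was also higher for 4 of 5 and lower for 0, where 6.44% of all were higher and 5.98% lower: Cish by 2.51, Il2ra by 1.79, Il2rb by 1.71 and Socs2 by 1.02. With the mean of its probe sets, Socs2 differed by 0.82 in LG_eTreg and was no longer counted. LG_eTconv differed from Spl_CD4 in Il2ra by −0.23, with all 3 arrays below it.

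LG_naive was lower than Spl_CD4 for 2 of 5 genes and higher for 0, where 9.24% of all genes differed, 4.67% higher and 4.57% lower: Socs2 by a log2 difference of −2.41 and Il2rb by −1.50. With the mean of its probe sets, Socs2 differed by −0.80 and was no longer counted. Il2ra (−0.78) and Cish (−0.61) did not reach 2-fold. At the brightest probe sets the single Spl_CD4 array thus read higher than LG_naive for all measured members but Il2, which was at background in Spl_CD4. At the second Il2ra probe set LG_naive 2 and 3 (2.30 each) read above Spl_CD4 (2.03), and LG_naive 1 (0.86) below it. Spl_CD8 was lower than Spl_CD4 for 3 of 5 genes and higher for 0, where 8.25% of all genes differed, 3.75% higher and 4.50% lower: Socs2 by −4.24, Il2ra by −2.50 and Cish by −2.15, whereas Il2rb differed by 0.56. With the mean of their probe sets, Socs2 differed in Spl_CD8 by −1.50 and Il2ra by −1.74, both still counted. The 5 measured B cell markers summed to 25.4 in Spl_CD4 and 28.5 in Spl_CD8, against 8.06 to 14.1 on the gland arrays, and their part in these differences was not tested.

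**Figure D3:**
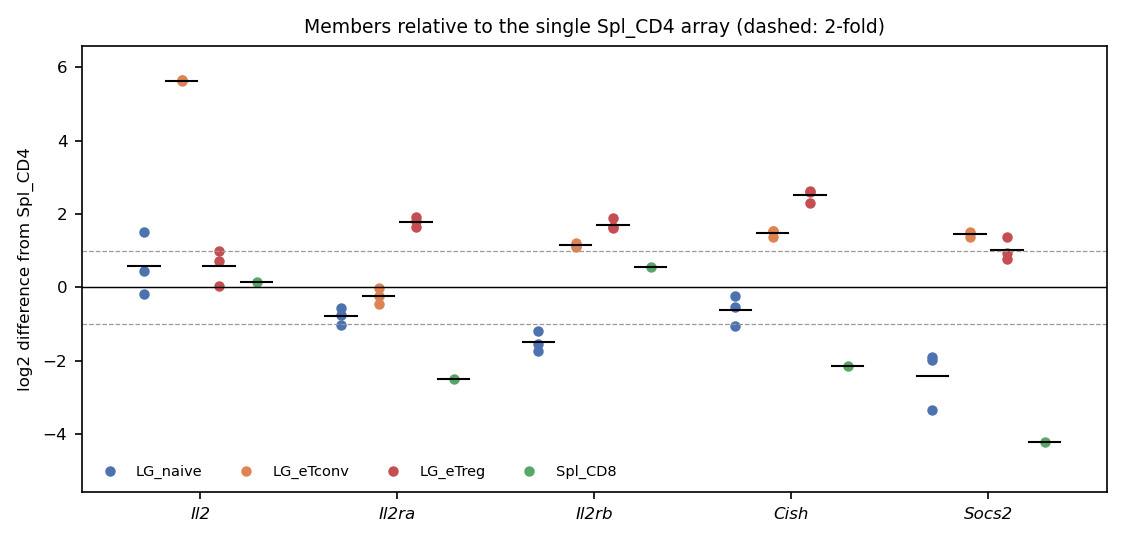
Log2 difference from the single Spl_CD4 array (y axis) of Il2, Il2ra, Il2rb, Cish and Socs2 (x axis), with 1 point for each gland array and for Spl_CD8 and black bars for group means. Il2 stood far above Spl_CD4 in LG_eTconv, where the plotted distance is measured from a Spl_CD4 signal below background and is at least 4.97 against its limit. At the plotted brightest probe sets Spl_CD8 lay furthest below for Socs2, at −4.24. With the mean of its probe sets Socs2 differed there by −1.50.

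In order of level at the brightest probe set, Il2rb ran LG_eTreg, LG_eTconv, Spl_CD8, Spl_CD4 and LG_naive, and Cish ran LG_eTreg, LG_eTconv, Spl_CD4, LG_naive and Spl_CD8. Il2ra ran LG_eTreg, Spl_CD4, LG_eTconv, LG_naive and Spl_CD8 at its brightest probe set, while at the other LG_eTconv (2.23) stood above Spl_CD4 (2.03), and its neighbours LG_eTconv and LG_naive did not differ beyond the threshold. Socs2 ran LG_eTconv, LG_eTreg, Spl_CD4, LG_naive and Spl_CD8, and its first 2 groups did not differ at the brightest probe set. For Il2, LG_eTconv stood alone, and the order of the other 4 groups lay at or near background.

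The sister cytokines of IL-2 that use the common gamma chain were mostly at background on these arrays. Il4, Il7, Il9 and Il15 were below background on all 11 arrays. Il21, which helps B cells, was the exception, at 8.52 ± 0.16 (SD, n = 3) in LG_eTconv, 5.62 ± 0.10 in LG_eTreg and 1.11 ± 0.20 in LG_naive, with only 1 LG_naive array over its limit. LG_eTreg thus had Il21 at an intermediate level (difference from LG_eTconv −2.90, SE 0.14, limma adjusted p = 9.96e-06) where Il2 was near background. Of the other receptor chains 4 of 5 were measured, and none was called higher in any comparison by limma (at an unadjusted p under 0.05, 0, 1 and 1 were). Over all genes 6.45%, 6.20% and 2.94% were called higher, and 0 of 4 is close to those shares. Of these chains Il9r was at or below background on all 11 arrays. Il4ra (−1.17, adjusted p = 0.0113) and Il21r (−0.72, adjusted p = 0.0355) were lower in LG_eTconv than in LG_naive. Only 1 of 3 LG_eTconv arrays had Il4ra above background, and with background values raised to the limit its difference shrank to −0.44 and lost its call (0.0639). The Il4ra call was also lost without LG_naive 1, LG_eTconv 1 and LG_eTreg 3 together (0.0549), and the Il21r call in 9 of 21 alternatives. Il15ra, the IL-15 chain that pairs with Il2rb, differed by 0.46 in LG_eTconv (adjusted p = 0.271) and by 0.79 in LG_eTreg (adjusted p = 0.0691) against LG_naive.

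Most signal transducers of the receptor did not pass the test, as was so for most genes of the array. Of 18 measured transducers, 1 was higher and 3 lower in LG_eTconv than in LG_naive. In LG_eTreg 1 was higher and 1 lower than in LG_naive, and 1 and 1 than in LG_eTconv. Over all genes 13.5%, 11.7% and 5.70% were called in either direction in these 3 comparisons. The medians of the 18 were −0.04, 0.10 and 0.16. Jak1, Jak3, Stat5a and Stat5b did not pass in any of the 3 comparisons. Stat5a stood at 8.14 ± 0.05 in LG_naive, 8.15 ± 0.06 in LG_eTconv and 8.16 ± 0.10 in LG_eTreg, and the effector subsets differed by 0.01 (95% interval −0.21 to 0.23). Jak3 was 0.69 higher in LG_eTreg than in LG_eTconv (95% interval 0.13 to 1.25, adjusted p = 0.186). The phosphatase gene Ptpn11, which links the receptor to the Ras pathway, was higher in LG_eTconv by 1.63 (adjusted p = 2.40e-05) and lower in LG_eTreg than there by −1.12 (adjusted p = 0.000468). Both Ptpn11 calls were lost at its probe set with the highest variance (0.0898 and 0.142). The PI3 kinase genes Pik3cd and Pik3r1 were lower in LG_eTconv than in LG_naive by −1.48 and −1.14 (adjusted p = 0.00144 and 0.00173). Pik3r1 was higher in LG_eTreg than in LG_eTconv by 1.001 (adjusted p = 0.00736, or 0.195 at its probe set with the highest variance).

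Inhibitors other than Cish and Socs2 were measured for 7 of 9 genes, and 3 were higher in LG_eTconv than in LG_naive, against 6.45% of all genes. Spred1 and Spred2, inhibitors of the Ras pathway, differed by 1.33 (adjusted p = 0.000141) and 0.68 (adjusted p = 0.0264, lost in 5 of 21 alternatives), and the ERK phosphatase gene Dusp6 by 0.84 (adjusted p = 0.00687). In LG_eTreg Dusp6 and Spred1 were lower than in LG_eTconv by −1.03 and −0.86 (adjusted p = 0.00480 and 0.00372). The Spred1 call was lost at the probe set with the highest variance (0.224) and without LG_naive 1, LG_eTconv 1 and LG_eTreg 3 together (0.0543). Socs1 and Socs3, the best known inhibitors of JAK kinases, did not pass in any comparison, and Socs3 ran from 4.67 to 4.81 in the group means.

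Genes known to rise with IL-2 and STAT5 were followed next. Of 19 measured, 6 were higher and 0 lower in LG_eTconv than in LG_naive by limma, against 6.45% and 7.02% of all genes. The median of the 19 was 0.29, and at an unadjusted p under 0.05 the counts were 7 and 4. The TNF receptor family gene Tnfrsf4 (4.08), the transcription factor Nfil3 (2.72), the cytokine Lta (2.30) and the inhibitory receptor Ctla4 (1.66) led. In LG_eTreg 9 were higher and 3 lower than in LG_naive, against 6.20% and 5.47% of all genes, with a list median of 0.16. Tnfrsf4 (4.31), Foxp3 (4.23), the transcription factor Prdm1 (3.78) and the granzyme gene Gzmb were among the higher ones. Gzmb was above background on none of the LG_naive arrays, so its difference is a bound of at least 4.27, or 19.3-fold. In the other direction, the survival gene Bcl2 was lower by −2.76 and the kinase gene Pim2 by −1.57.

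Between the effector subsets 5 of these 19 were higher and 3 lower in LG_eTreg, against 2.94% and 2.76% of all genes, with a list median of 0.26. Foxp3 (3.94), Prdm1 (3.52), Tnfrsf18 (1.04) and Gzmb (limma adjusted p = 6.68e-06) were higher. Gzmb was above background on 1 of 3 LG_eTconv arrays, and its difference was 4.74 as measured and 4.37 with each LG_eTconv array at no less than its limit. Pim1 was also called (0.38) but was below background on all 11 arrays, and it lost its call in 13 of 20 alternatives. Bcl2 was lower by −3.27 (SE 0.38, limma adjusted p = 0.00134), at 4.29 ± 0.91 in LG_eTreg against 7.56 ± 0.13 in LG_eTconv. Lta (−2.13, adjusted p = 0.00207) and Pim2 (−1.17, adjusted p = 0.000574) were lower as well. Bcl2l1, which encodes the survival protein Bcl-xL, was higher than in LG_naive in both subsets, by 0.95 and 1.20 (adjusted p = 0.000633 and 0.000217).

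Of 7 genes known to fall with IL-2 signals only Bcl6, Il6ra and Il6st were measured. Il6ra, the IL-6 receptor chain, was lower in LG_eTreg than in LG_naive by −1.58 (adjusted p = 0.00535, or 0.0702 without LG_naive 1, LG_eTconv 1 and LG_eTreg 3 together). Against LG_eTconv it was lower by −1.22 (adjusted p = 0.0326), a call lost in 14 of 21 alternatives. Bcl6, the follicular helper factor, was higher in LG_eTconv than in LG_naive by 0.57 (adjusted p = 0.0135, lost in 3 of 21 alternatives).

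Transcription factors that act at the Il2 gene are known as activators or repressors of it. Of 12 measured activators, 2 were higher and 1 lower in LG_eTconv than in LG_naive, and 3 and 1 in LG_eTreg. The shares of all genes were 6.45% and 7.02% in LG_eTconv and 6.20% and 5.47% in LG_eTreg. Between the effector subsets limma called 0 of the 12 in either direction, close to the 5.70% of all genes. At an unadjusted p under 0.05, 2 activators were higher and 1 lower there. Nfatc1, of the family that binds the GGAAAA core, exceeded its LG_naive level by 2.33 in LG_eTconv (adjusted p = 0.000308) and by 1.94 in LG_eTreg (adjusted p = 0.00103), and Rel, an NF-kB subunit, by 1.60 (0.00203) and 1.22 (0.00983). Jun was lower than in LG_naive in both subsets. It differed by −0.63 in LG_eTconv (limma adjusted p = 0.0159, lost in 4 of 21 alternatives) and by −0.84 in LG_eTreg (adjusted p = 0.0045). The part of these activators in the Il2 differences was not tested.

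Of 9 measured repressors, 2 were higher and 1 lower in LG_eTconv than in LG_naive (median 0.26). In LG_eTreg 5 were higher and 2 lower than in LG_naive (median 2.72). Among all genes 6.45% were higher and 7.02% lower in LG_eTconv, 6.20% and 5.47% in LG_eTreg, and 2.94% and 2.76% between the effector subsets. Between the effector subsets limma called 5 higher and 0 lower in LG_eTreg (5 and 1 at an unadjusted p under 0.05), with a median of 1.51: Foxp3 (3.94), Prdm1 (3.52), Ikzf4 (2.53, adjusted p = 1.34e-05), Ikzf3 (2.39, adjusted p = 0.000320) and the chromatin organizer Satb1 (1.51). Foxp3 and Prdm1 also stand in the list of genes that rise with STAT5. Ikzf4, which encodes the Ikaros family factor Eos, read 2.84 ± 0.17 in LG_naive, 4.12 ± 0.17 in LG_eTconv and 6.65 ± 0.08 in LG_eTreg. Tbx21, which encodes T-bet, was higher in both effector subsets, by 3.68 in LG_eTconv and 4.31 in LG_eTreg against LG_naive. Satb1 was lower than in LG_naive in both, by −3.39 and −1.87.

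**Figure D4:**
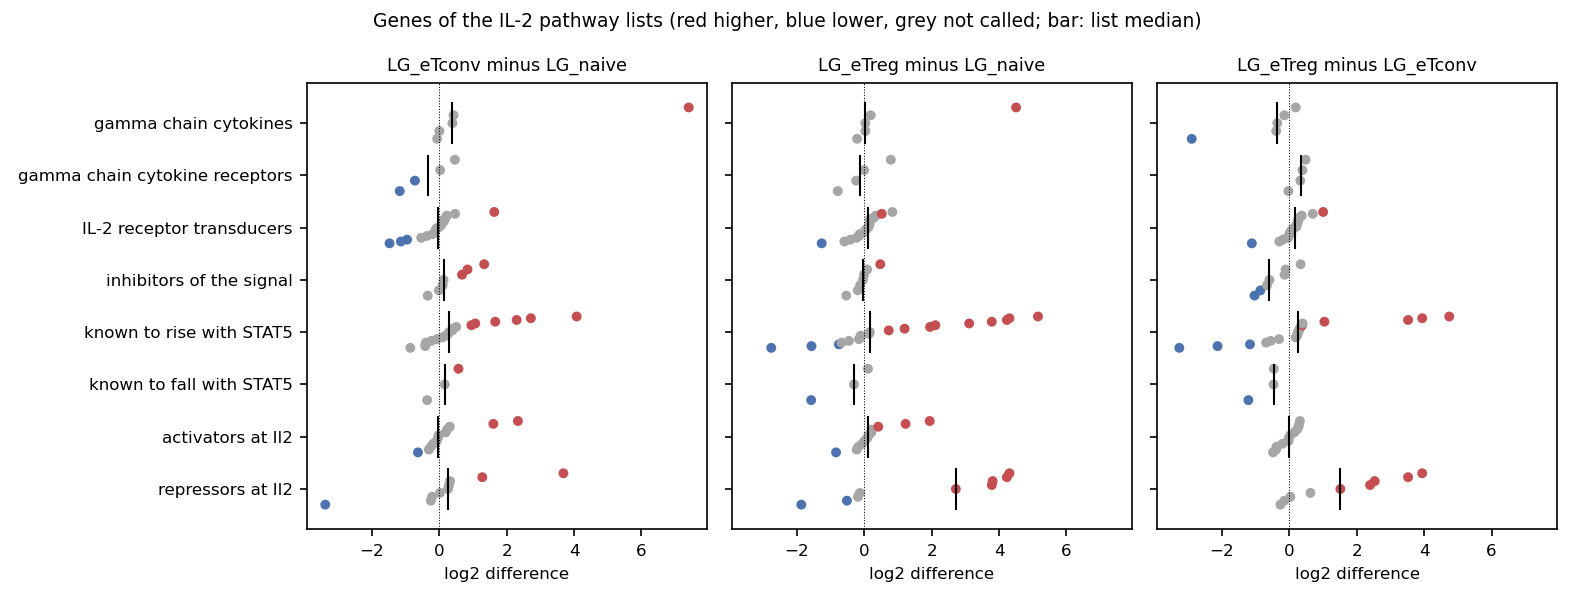
Log2 difference (x axis) of each measured gene in 8 lists of the IL-2 pathway (y axis) for the 3 gland comparisons, red where higher and blue where lower at an adjusted p under 0.05, grey otherwise, with a bar at the list median. In LG_eTreg minus LG_eTconv, 5 of 9 repressors at Il2 are red and 0 of 12 activators are coloured. There 2.94% of all genes were higher and 2.76% lower, and 0 of 12 is close to those shares. The lists were chosen with earlier results of these data known, and their part in the Il2 difference was not tested.

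The 3 genes with the pattern most like each member were named by the root mean square difference over all 11 arrays, after centring each gene on its own mean, among 10650 genes above background on at least 3 arrays. For Il2, whose own spread by that measure was 2.36, they were Scin (0.41), an actin-severing protein, Cd109 (0.48), a surface protein, and Gucy2g (0.54), a guanylate cyclase. Like Il2, for which it was picked, Scin was high in LG_eTconv (5.59) and low in LG_naive (0.02) and LG_eTreg (0.70). Gucy2g read 4.53 in LG_eTconv, −0.25 in LG_naive and −0.11 in LG_eTreg, so it met the background requirement through the LG_eTconv arrays alone. For Il2ra (1.28) they were the ribonuclease gene Rnase4 (0.39), the proteoglycan gene Prg4 (0.39) and the lipid phosphatase gene Plpp1 (0.45). Rnase4 read 6.16 in LG_eTreg, 3.53 in LG_eTconv, 3.34 in LG_naive, 4.32 in Spl_CD4 and 1.10 in Spl_CD8.

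Il2rb (1.28) was nearest to Akap12 (0.27), a kinase anchoring protein, Klf12 (0.32), a transcription factor, and Anxa2 (0.36), an annexin. Cish (1.54) was nearest to Capg (0.44), an actin-capping protein, Oas1g (0.45), an interferon-induced gene, and Tnfrsf1b (0.46), which encodes TNF receptor 2. Socs2 (2.02) was nearest to Tiam1 (0.36), a Rac exchange factor, Gpm6b (0.52), a membrane glycoprotein, and Stx11 (0.57), a syntaxin. The nearest genes of Cish were high in both effector subsets and above LG_eTconv in LG_eTreg, as for Capg at 6.79 and 5.70. Those of Socs2 were above LG_eTreg in LG_eTconv, as for Tiam1 at 8.48 and 9.11. Such shared orders follow from picking the genes for likeness on these same arrays and are not separate results.

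**Figure D5:**
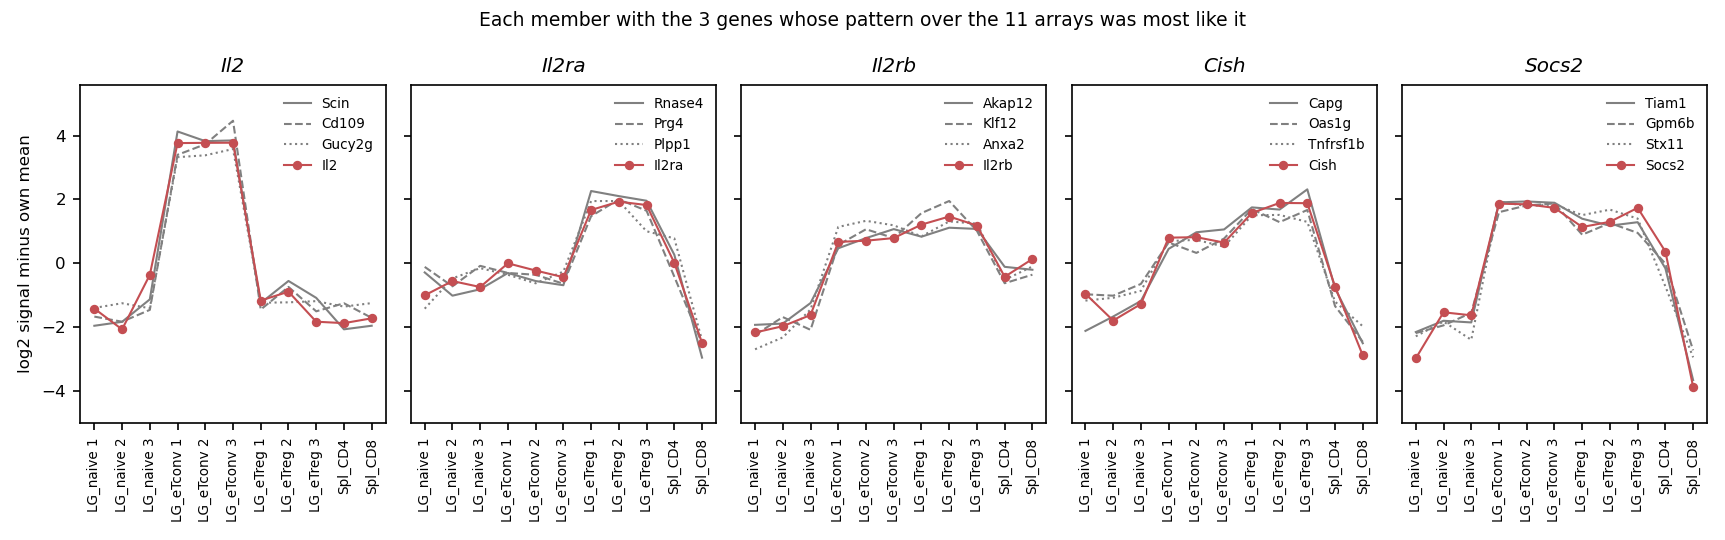
Log2 signal minus each gene's own mean (y axis) on the 11 arrays (x axis) for Il2, Il2ra, Il2rb, Cish and Socs2 (red) and, in grey, the 3 genes with the smallest root mean square difference from each. Lines join arrays for reading only. The Il2 panel peaks on the LG_eTconv arrays and the Il2ra panel on the LG_eTreg arrays.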

How the data were processed

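RNA of sorted T cells was hybridised to 11 arrays whose probe sets hold perfect-match probes only. Per the submitters' processing notes, the deposited log2 values were made by the authors with RMA and Partek, with no versions given. The base of the logarithm is not written and is taken as 2, as RMA gives.

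The table holds 45141 probe sets, of which 104 are controls and were not used. Among the remaining 45037, 28898 carry 1 symbol, 551 several and 15588 none. A gene (17097 in all) was read at its brightest probe set, by mean over the 9 gland arrays, with no filter on dim genes. limma 3.58.1 in R 4.3.3 fitted a mean per gland group over 9 arrays (6 residual degrees of freedom) with empirical Bayes. Tests were two-sided and calls used a Benjamini-Hochberg adjusted p under 0.05 over all genes. Spleen arrays were described without a test. The method was tested on simulated data.

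Named genes were all members, up to 4 called genes of a pathway list with the largest difference in a comparison, any measured gene of lists of up to 9, and the 3 nearest patterns. Jak1, Jak3, Stat5a, Stat5b, Bcl2l1, Pim1, Pim2 and Tnfrsf18 were named after their values were seen. So were Lta between the effector subsets and Bcl2 in LG_eTreg against LG_naive. Members and lists were chosen with earlier results of these data known. List genes without a probe set under their symbol are not reported here. The number of arrays limits precision.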

Additional observations from a re-analysis of the deposited data

How the results depend on the processing

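The counts of called genes and the 5 members in 3 comparisons were recomputed under 21 alternatives. A member value was held to its direction and side of the threshold, and a count only to a wide ratio of its main value. The counts ran from 1770 to 2414 and from 1460 to 2078 for LG_eTconv and LG_eTreg against LG_naive, and from 672 to 1030 between the effector subsets. By these rules 359 of 378 values stayed the same. The cause of the changes was not tested. Il2 in LG_eTreg against LG_naive, near 0 and not called, changed sign with quantile normalization (0.048), median centring (0.030) and without LG_naive 1, LG_eTconv 1 and LG_eTreg 3 together (0.19), and ran from −0.40 to 0.45 with single arrays left out. Il2ra in LG_eTconv against LG_naive was called with median centring (0.57) and ran from 0.43 to 0.65 with single arrays left out. Il2rb in LG_eTreg against LG_eTconv was called with its probe sets averaged (0.97) and with the most variable of them (0.98), and ran from 0.47 to 0.62. Cish in that comparison lost its call with background values raised to the limit (1.03), with the replicate block (1.03) and without the 3 arrays together (0.999), and ran from 0.97 to 1.13.

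Deviations of same-numbered arrays correlated from −0.10 to 0.28, with 3 of 9 pairs over 0.1 and 3 of 9 arrays closest to their own number. Between LG_eTconv and LG_eTreg, however, the same-numbered pairs (0.283, 0.079 and 0.171) all exceeded the other pairs, which reached at most 0.019. Same-numbered pairs with LG_naive ran from −0.097 to 0.137. The labels say nothing of pairing, so whether the effector arrays were paired is not known, and the main fit did not take the numbers as pairs. With the replicate block 2271, 1929 and 906 genes were called in place of 2303, 1995 and 974, and of the member calls only that of Cish between the effector subsets changed.

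Of 66 called differences of list genes, 48 held under every alternative. Shc1 in LG_eTconv against LG_naive turned with its probe sets averaged (0.032) and with the most variable of them (1.02), and Ptpn11 in LG_eTreg against LG_naive with the most variable one (−0.069).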
